A study of Drosophila melanogaster with 4 samples.

Results

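The Antennapedia complex and the bithorax complex hold the Hox genes of Drosophila melanogaster, and both lie on arm 3R. They were taken here as fixed stretches of FlyBase release 5, 3R 2480001 to 2830000 (350 kb) for the Antennapedia complex and 3R 12480001 to 12810000 (330 kb) for the bithorax complex. Cut into consecutive windows of 1 kb, they gave 680 of the 27905 windows of 3R, and of 139706 windows over all sequences that hold clusters. The bounds of the stretches are positions and use no measured value. Stretches of 200 kb on each side, 800 windows in all, served as flanks; the lower flank has the smaller coordinates.

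Trimethylation of histone H3 at lysine 9 (H3K9me3) was mapped by chromatin immunoprecipitation and sequencing (ChIP-seq) in embryos 14 to 16 h old of the wild-type strain Oregon-R, with no mutation or treatment in any group. Chromatin came from embryos of population cages, so each library is a mixture of many embryos and of all their cell types, and was fixed with 1.8% formaldehyde. The samples comprised 2 ChIP libraries made with an Abcam antibody and 2 input libraries. Each ChIP library had its own list of enriched clusters, and 1 more list covered the set of replicates (the series-wide list); values of the input libraries were not used here. On the whole of 3R, replicate 1 held 192 clusters, replicate 2 held 166 and the series-wide list held 311. The lists give positions and a score whose scale is not stated, and no read counts, so the depth is unknown.

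Hox genes encode homeodomain transcription factors that give the segments of the embryo their identity. In cells where a Hox gene is off, Polycomb group proteins keep it silent, with trimethylation of lysine 27 of histone H3 (H3K27me3) as their mark, and the complexes are classic examples of such domains. H3K9me3 is the mark of another silencing system: it is bound by HP1 and is typical of heterochromatin around centromeres and of repeats. H3K27me3 and Polycomb proteins were not measured in these libraries, so the state of the complexes as Polycomb domains was not checked; the values below say how far the H3K9me3 clusters reached into them.

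The Antennapedia complex carries the Hox genes of the head and anterior thorax. These are lab (labial), pb (proboscipedia), Dfd (Deformed), Scr (Sex combs reduced) and Antp (Antennapedia). Between them lie genes derived from Hox genes or unrelated to them: bcd (bicoid), the maternal factor of anterior patterning, zen (zerknüllt), needed for dorsal tissues, its relative zen2, ftz (fushi tarazu), a pair-rule segmentation gene, and Ama (Amalgam), which encodes a secreted protein of the immunoglobulin superfamily. The bithorax complex carries Ubx (Ultrabithorax), abd-A (abdominal A) and Abd-B (Abdominal B), which act in the posterior thorax and the abdomen. In the RefSeq gene table of release 6, lab is the listed gene with the lowest position and Antp that with the highest. Between the outermost listed genes, these included, that table holds 45 genes (20 of them protein-coding) for the Antennapedia complex and 17 genes (6 of them protein-coding) for the bithorax complex. Positions of release 6 were not carried over to release 5, so no cluster below is assigned to a gene.

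The Antennapedia complex held a few short H3K9me3 clusters and the bithorax complex held none in either library. Clusters covered 1.45% of the bases of the Antennapedia complex in replicate 1 (5079 bp in 3 clusters) and 0.949% in replicate 2 (3320 bp in 2 clusters), on average 1.20% ± 0.355 (SD, n = 2). They covered 0 of the 330 kb of the bithorax complex in replicate 1 and 0 in replicate 2. The series-wide list gave 2.50% of the Antennapedia complex (8735 bp in 5 clusters) and 0.998% of the bithorax complex (3295 bp in 3 clusters). The complexes differed by 1.45 percentage points in replicate 1 and by 0.949 points in replicate 2, in each case higher in the Antennapedia complex, on average by 1.20 points (SD 0.355, n = 2). Over sign flips of 2 libraries an exact two-sided permutation test cannot give a p below 0.5, so no test was made of this or of the differences below, and each is given with the SD of the libraries. That SD does not measure how stretches of the arm vary among themselves. Stretches of 350 kb along 3R had quartiles of 0.547% and 2.57% covered in replicate 1, wider apart than the complexes.

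**Figure D1:**
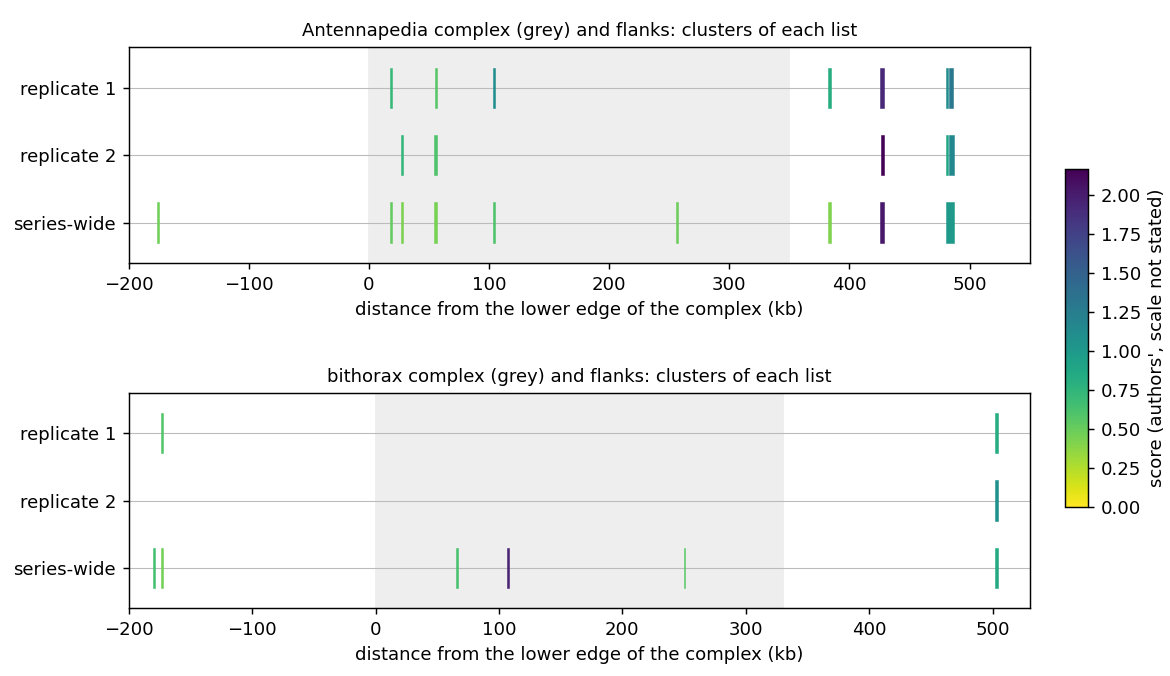
Positions of H3K9me3 clusters in each list over the Antennapedia complex (upper panel) and the bithorax complex (lower panel), both on a grey ground with 200 kb of flank on each side. The horizontal axis is the distance in kb from the lower edge of the complex, each bar is 1 cluster and its colour is the authors' score; the bithorax complex is empty in both libraries and holds 3 clusters in the series-wide list.

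Counted in 1 kb windows, few of the 680 windows were touched by a cluster at all. At least 1 bp of a cluster lay in 9 windows (1.32%) in replicate 1, where 2.41% of all windows of 3R were touched. The count was 6 windows (0.882%) in replicate 2, against 2.14% of the windows of 3R. In the series-wide list it was 21 windows (3.09%), against 3.70% of 3R. In all 3 lists the share of touched windows in the complexes was thus below that of the arm. All touched windows of the libraries lay in the Antennapedia complex. Within it alone the share was 2.57% in replicate 1 and 4.00% for the series-wide list, both above the arm, and 1.71% in replicate 2, below the arm. Windows covered over at least 50% of their length numbered 5 of the 680 in replicate 1, against 496 of the 27905 windows of 3R (1.78%). In replicate 2 they numbered 3 of the 680, against 457 of 27905 (1.64%). Both shares of the complexes were below those of the arm. Of the 680 windows, 3 were touched in both libraries, 9 in 1 library and 10 in the series-wide list alone, and 658 in no list. Windows shared between lists were not counted over 3R, so these 4 counts cannot be called high or low for the arm.

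The clusters in the Antennapedia complex merged into 5 places when overlapping clusters of the 3 lists were joined, 1 of them found in both libraries. This shared place spanned 2534427 to 2536322. Its cluster ran from 2534648 to 2536254 in replicate 1 (1607 bp, score 0.575) and from 2534438 to 2536262 in replicate 2 (1825 bp, score 0.608), and 1607 bp were covered in both. Scores are the authors' own and are compared here only with those of the same list. Among the clusters of 3R these scores were low: 6.25% of the 192 clusters of replicate 1 and 8.43% of the 166 clusters of replicate 2 had a lower one.

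Another 3 places were found in 1 library each, and all 3 were also in the series-wide list. Replicate 1 alone had a cluster at 2497246 to 2499014 (1769 bp, score 0.713) and one at 2583365 to 2585067 (1703 bp, score 1.11). The cluster at 2583365 had the highest score of the 3 that replicate 1 held in the complex, and 61.5% of the 3R clusters of replicate 1 scored lower. Replicate 2 alone had a cluster at 2506858 to 2508352 (1495 bp, score 0.738), with 21.7% of its 3R clusters scoring lower. The fifth place, 2735916 to 2737581 (1666 bp, score 0.486), was in the series-wide list and in neither library.

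The 4 places found in the libraries all lay in the lower part of the Antennapedia complex, between 17.2 and 105 kb from its lower edge. Divided into 5 stretches of 70 kb, the complex was covered to 4.82% in replicate 1 and 4.74% in replicate 2 in the first stretch. In the second stretch the share was 2.43% in replicate 1 and 0 in replicate 2. The remaining stretches held no cluster of either library, and the series-wide list covered 2.38% of the fourth stretch. From 2585068 to 2862525 a stretch of 277 kb was free of clusters in both libraries, and 245 kb of it (70.0% of the complex) lay inside the complex. By length this stretch had rank 31 of the 220 such stretches of 3R, so longer ones were common on the arm. In replicate 2 the free stretch was longer, from 2536263 to 2905888 (rank 21 of 167), and took up 83.9% of the complex.

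The bithorax complex lay entirely inside a single stretch that neither library covered. This stretch ran from 12307970 to 12982021, 674 kb, and so extended well beyond both edges of the 330 kb complex. It was the third longest of the 220 stretches of 3R free of clusters in both libraries, whose median was 65.7 kb and whose longest was 822 kb. In replicate 1 alone the free stretch around the complex was 674 kb long (rank 4 of 193), and in replicate 2 alone it was 860 kb long (rank 3 of 167). The nearest clusters lay 172 kb from the lower and 172 kb from the upper edge in replicate 1, and 358 kb from the lower and 172 kb from the upper edge in replicate 2. Free stretches of at least 330 kb were not rare on 3R: 25 of the 220 were that long, and they made up 39.8% of the arm.

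The 3 clusters of the series-wide list in the bithorax complex were all short. They lay at 12545388 to 12546483 (1096 bp, score 0.631), at 12586799 to 12587813 (1015 bp, score 1.96) and at 12729865 to 12731048 (1184 bp, score 0.552). Each was shorter than 1301 bp, the shortest cluster that either per-library list holds on any sequence, so clusters of such length do not occur in those lists. Without clusters under that length, a limit chosen after the data were seen, the series-wide list covered 0 of the bithorax complex and still 2.50% of the Antennapedia complex. Clusters of this kind were common on the arm: 103 of the 311 series-wide clusters of 3R (33.1%) overlapped neither library, and 58 of the 103 were shorter than 1301 bp. The middle one, at 12586799, had the 12th highest score of those 103 and the 25th highest of all 311, and 3.86% of the 311 were shorter. Short clusters with high scores were not particular to the complex. Of the 103, those under 1301 bp had a median score of 0.611 and a highest of 4.28. The longer ones had a median of 0.489 and a highest of 4.17. In these data the bithorax complex thus held 3 places that appear in the series-wide list alone and 0 that a single library holds.

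**Figure D2:**
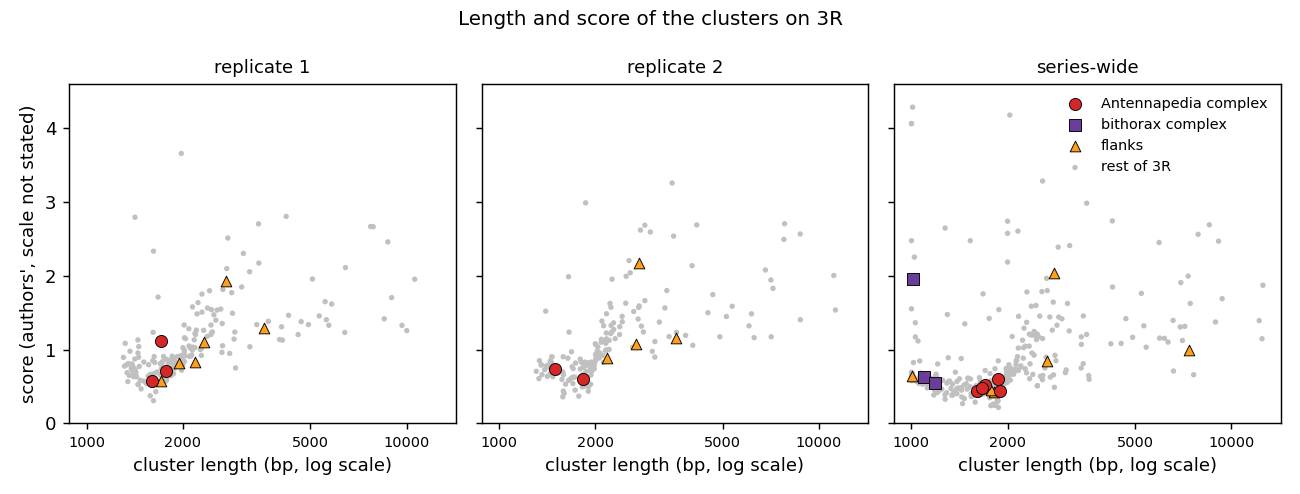
Length (bp, log axis) and authors' score of every cluster on 3R in each list, with those of the complexes and of their flanks marked. Clusters of the Antennapedia complex are all under 2 kb long and have scores of 0.433 to 1.11, and those of the bithorax complex occur in the series-wide list alone, 1 of them with a score of 1.96.

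In the libraries, the clusters of the Antennapedia complex had lower median lengths and scores than those of the flanks and of the arm. In the Antennapedia complex the median length was 1703 bp in replicate 1 and 1660 bp in replicate 2. In the flanks of both complexes together it was 2257.5 bp in replicate 1 and 2711 bp in replicate 2, and over all clusters of 3R it was 1987.5 bp in replicate 1 and 2038.5 bp in replicate 2. The median score was 0.713 in the Antennapedia complex in replicate 1, against 0.963 in the flanks and 0.933 on 3R. In replicate 2 it was 0.673 in the Antennapedia complex, against 1.11 in the flanks and 0.973 on 3R. These medians rest on 3 and 2 clusters in the complex and are given as a description. No cluster of the libraries in the complexes reached 2 kb, as 94 of the 192 clusters of 3R did in replicate 1 and 93 of the 166 in replicate 2. None reached the median score of its whole list either (1.96 in replicate 1 and 1.99 in replicate 2), but few clusters of the arm did, 14 of 192 in replicate 1 and 16 of 166 in replicate 2. With either limit, 0 of the Antennapedia complex was covered.

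The flanks showed that the surroundings of each complex were uneven. The upper flank of the Antennapedia complex was covered to 5.30% in replicate 1 and 4.25% in replicate 2, more than any other of these stretches. Its lower flank held no cluster in either library, and the nearest cluster below the complex lay 344 kb away in both. That cluster, at 2132103 to 2135549 in replicate 1 (3447 bp, score 2.70) and 2132114 to 2135590 in replicate 2 (3477 bp, score 3.255), had the highest score of all 3R clusters of replicate 2. Above the complex the nearest cluster lay 32.5 kb away in replicate 1 (2862526 to 2864467, score 0.819) and 75.9 kb away in replicate 2 (2905889 to 2908627, score 2.17). In the series-wide list the nearest clusters lay 175 kb below and 32.5 kb above the complex. The complex itself thus fell between its flanks: it was 3.57 percentage points below its upper flank (SD 0.382, n = 2) and 1.20 points above its lower flank (SD 0.355). Against both flanks together, covered to 2.65% in replicate 1 and 2.13% in replicate 2, the complex was lower by 1.20 points in replicate 1 and by 1.18 points in replicate 2. This difference of -1.19 ± 0.0132 points (SD, n = 2) was alike in both libraries, and its sign came from the upper flank alone. With flanks of 100 kb it shrank to -0.654 points (SD 0.330) and with flanks of 500 kb to -0.641 points (SD 0.279). The libraries were thus less alike with other flanks.

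Most of the covered bases of that upper flank lay in a few longer regions. The longest region covered in both libraries was 2963143 to 2966528 (3386 bp), with scores of 1.30 in replicate 1 and 1.15 in replicate 2. The next was 2905889 to 2908585 (2697 bp), with scores of 1.93 in replicate 1 and 2.17 in replicate 2. The score of 2.17 was higher than that of 92.8% of the 3R clusters of replicate 2. Inside the complexes, the single region that both libraries covered measured 1607 bp.

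The flanks of the bithorax complex were sparsely covered as well. The complex had 0 covered bases in both libraries, against 0.976% of its flanks in replicate 1 and 0.671% in replicate 2, a difference of -0.824 ± 0.216 points (SD, n = 2). In the upper flank 1 region was covered in both libraries, 12982217 to 12984406 (2190 bp), with scores of 0.825 in replicate 1 and 1.07 in replicate 2. In the lower flank replicate 1 had a single cluster at 12306255 to 12307969 (1715 bp, score 0.576) and replicate 2 had 0. Both regions lay 172 kb from the complex, so the 100 kb next to each edge was free of clusters in both libraries, as the complex was. In the series-wide list the complex was covered to 0.998%, against 1.36% of its flanks.

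**Figure D3:**
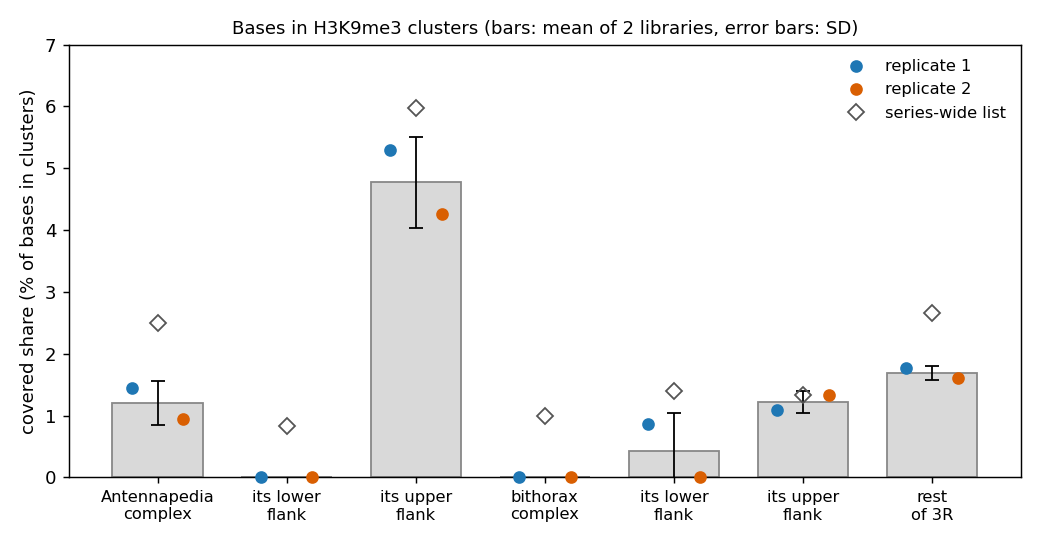
Covered share (% of bases in clusters) of each complex, of its lower and upper flank, and of the rest of 3R. Bars are means of 2 libraries with the SD, points are the libraries and open diamonds the series-wide list; the Antennapedia complex lies between its flanks, and the bithorax complex is at 0 in both libraries.

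Set against the rest of 3R, the Antennapedia complex was near the level of the arm and the bithorax complex below it. The rest of 3R, outside complexes and flanks, was covered to 1.77% in replicate 1 and 1.62% in replicate 2. The Antennapedia complex was lower than this by 0.493 points on average (SD 0.246, n = 2; -0.319 points in replicate 1 and -0.667 points in replicate 2). The bithorax complex was lower by the whole of the share, 1.69 points (SD 0.109). Both complexes together were covered to 0.618% ± 0.183 (SD, n = 2), which was 1.08 points below the rest of 3R (SD 0.0738). The rest of 3R includes the centromere-proximal 1 Mb. Without that 1 Mb, but with complexes and flanks, 3R was covered to 1.58% in replicate 1 and 1.43% in replicate 2. Both values are closer to the Antennapedia complex than those of the rest of 3R. In clusters per Mb, the Antennapedia complex had 8.57 in replicate 1 and 5.71 in replicate 2, and the rest of 3R had 6.93 in replicate 1 and 6.05 in replicate 2.

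Because clusters are unevenly spread along 3R, each complex was also set beside stretches of its own length along the arm. These were obtained by 1000 equally spaced circular shifts of the clusters. The shares below describe where the complexes stand among such stretches of this one arm. Neighbouring shifts overlap, the smallest shifts in either direction give stretches that overlap the complex itself, and no p is drawn from them. Shifted stretches of 350 kb had a median covered share of 1.32% in replicate 1 and 1.14% in replicate 2, and the highest were 7.98% in replicate 1 and 7.34% in replicate 2. The Antennapedia complex stood in the middle of this range, with 55.0% of shifts at or below it in replicate 1, 44.0% in replicate 2 and 57.3% for the series-wide list.

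The bithorax complex stood at the low end, which many stretches share. Of the shifted stretches of 330 kb, 14.7% in replicate 1 and 20.1% in replicate 2 had 0 covered bases, as the complex did. Some of these lay within the free stretch around the complex itself, of 674 kb in replicate 1 and 860 kb in replicate 2. In the series-wide list 23.7% of shifts were at or below its 0.998%, and 4.50% were at 0. Taking stretches outside the centromere-proximal 1 Mb of 3R alone, a comparison added after the data were seen, 14.3% of stretches were at 0 in replicate 1 and 20.4% in replicate 2. When both complexes were shifted together, 17.7% of shifts in replicate 1 and 12.5% in replicate 2 had a covered share at or below theirs. Neither complex stood above the range of the shifts. Its lowest share was 0 for each complex in every list, so neither could have stood below it.

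**Figure D4:**
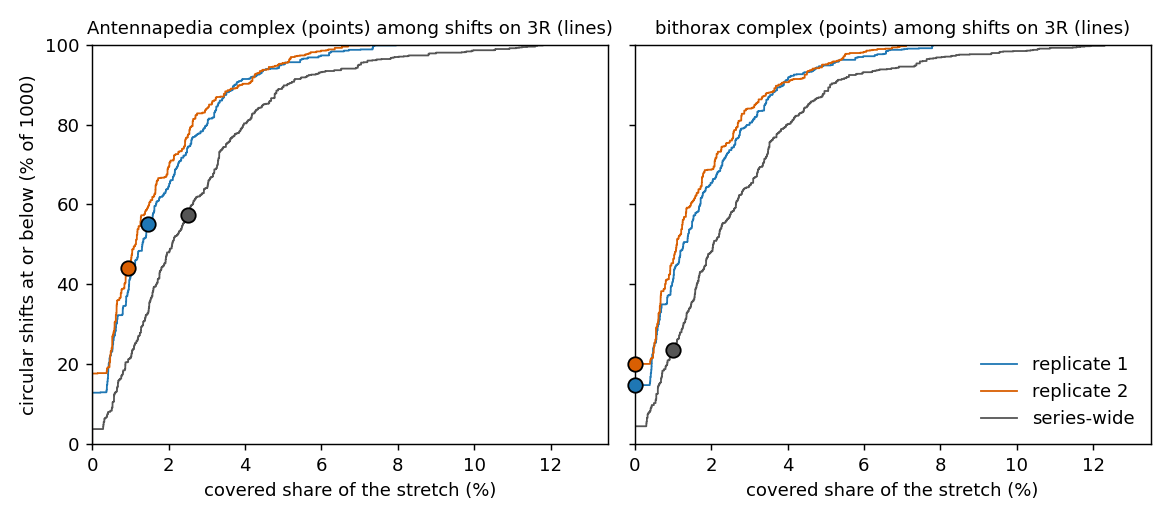
Share of 1000 circular shifts of the clusters on 3R (vertical axis, %) whose covered share of a stretch of the same length is at or below the value on the horizontal axis (%), one line per list. Points mark the complexes: the Antennapedia complex sits between 44.0% and 57.3% of shifts, and the bithorax complex at 14.7% and 20.1% in the libraries and 23.7% for the series-wide list.

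The libraries shared less of what they covered inside the complexes than around them. This rests on the Antennapedia complex alone, with 1 place in both libraries and 3 in 1 library, since the bithorax complex held no cluster of either. In the complexes 1607 bp were covered in both libraries and 5185 bp in 1 of them, a Jaccard index (bases in both over bases in either) of 0.237. In the flanks 10456 bp were covered in both and 4775 bp in 1, an index of 0.686, and on 3R outside complexes and flanks the index was 0.650. Of the clusters of both libraries together, 2 of 5 in the complexes overlapped the other library by at least 1 bp (40.0%, 95% exact Clopper-Pearson interval 5.27 to 85.3%), against 8 of 10 in the flanks (80.0%, 44.4 to 97.5%) and 77.0% of 343 on the rest of 3R (72.1 to 81.3%). A place found in both libraries counts once from each, so the 2 overlapping clusters in the complexes are 1 place. The intervals take clusters as independent, which those at 1 place are not, so they are only a rough description. They overlap, and the difference was not tested. Cluster length differed as well: all 5 library clusters in the complexes were under 2 kb. The 8 overlapping clusters of the flanks were all of at least 2 kb. The shorter flank clusters, of 1942 and 1715 bp in replicate 1, did not overlap replicate 2. The contrast is therefore not one at like cluster length.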

How the data were processed

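Clusters of significant enrichment were deposited by the authors as GFF3 lists with a start, an end and a score, with positions of FlyBase release 5 according to the file headers. The submitters' processing notes name Bowtie 0.12.7. The caller, its threshold and the scale of the score the authors deposited are not stated. The depth per library is unknown. There is 1 list per ChIP library; how the series-wide list was made is not stated. The labels do not say whether each library had its own embryo collection, and the SD between them may be technical.

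Covered shares, windows, overlaps and shifts were computed with numpy 2.4.6 and scipy 1.17.1 under Python 3.11.15, and checked on simulated clusters. A shift moved all clusters of 3R by the same distance, in steps of 27.9 kb, and joined the ends of the arm. A cluster counted for a stretch it overlapped by at least 1 bp. Regions were named by a rule: every cluster in a complex, the nearest cluster outside each edge, and the 3 longest regions of the flanks covered in both libraries. The complexes as a subject, the gene list and the tests were chosen with earlier results of these data known. Alternatives were a score limit, joining within 1 kb, a minimum length, the series-wide list, each library alone, other flanks, edges and window rules.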

Additional observations from a re-analysis of the deposited data

How the results depend on the processing

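With single libraries the covered share was 0.949 to 1.45% for the Antennapedia complex, 0 for the bithorax complex, 2.13 to 2.65% and 0.671 to 0.976% for their flanks; the differences were -1.20 to -1.18 and -0.976 to -0.671 points, and 6 to 9 windows were touched. No value changed sign. Limiting each list to its upper scores (from its median up), which kept 14 of 192 and 16 of 166 clusters of 3R, left 0 of the Antennapedia complex, 0.342% and 0 of the flanks, differences of -0.342 and 0 points, 0 windows and 1 cluster, with 0% overlapping. Clusters of at least 2 kb left 0 of the complexes and 0 windows, a difference of -2.14 points for the Antennapedia complex, and 100% overlap (8 of 8) against 66.7% (10 of 15). The series-wide list gave 2.50% and 0.998% for the complexes, 3.40% and 1.36% for the flanks, -0.903 and -0.363 points, and 21 windows; with its clusters of at least 1301 bp, added after the data were seen, it gave 2.50%, 3.40% and 1.11%, -0.903 and -1.11 points, and 14 windows. Flanks of 100 kb were covered to 1.85% and 0 (-0.654 and 0 points), and flanks of 500 kb to 1.84% and 1.05% (-0.641 and -1.05 points). Joining within 1 kb gave -1.35 points (SD 0.0465) for the Antennapedia complex, edges 20 kb outward -1.31 (SD 0.0497) and 20 kb inward -1.54 (SD 0.684). Requiring 50% of a window to be covered left 4 windows on average. A score limit and a minimum length can only remove clusters; for the other changes the cause was not tested. No paired analysis was possible because the input libraries have no values here.

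The main limits are the few clusters in the complexes, the unknown depth, and lists that hold only what passed the authors' threshold: enrichment below it, or shorter than the lists' minimum, was not detectable.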
